A study of Mus musculus with 28 samples.

Results

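The genes described here are 10 targets and regulators of the integrated stress response, Trib3, Chac1, Asns, Xbp1, Herpud1, Atf4, Ddit3, Atf3, Sesn2 and Hspa5, out of 21887 protein-coding genes in the RefSeq annotation of the mouse genome (GRCm38.p6, the build mm10). Each gene was represented by the acetylated region that overlapped its body plus 1 kb on either side. The assay was ChIP-seq (chromatin immunoprecipitation and sequencing) of mouse lung adenocarcinoma cells, for 2 histone marks: acetylated lysine 27 of histone H3 (H3K27ac), found at active promoters and enhancers, and acetylated lysine 9 (H3K9ac), found mostly at active promoters. The 4 groups were cells resistant to PD-1 blockade with a short hairpin knockdown of Fabp7, which encodes a fatty acid binding protein (Res_shFabp7), resistant cells (Res), resistant cells labelled as control, genotype Control (Res_Ctrl), and PD-1-sensitive wild-type cells (Sen). The labels mention treatment with PD-1 inhibitors for the Res cells alone, so a difference of Res from the other groups cannot be told apart from that treatment as labelled. Each mark had 3 libraries per group, called biological replicates in the labels; nothing says that they came from separate cultures, so p-values measure the spread between these libraries.

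In the integrated stress response, kinases that sense amino acid shortage, misfolded protein, double-stranded RNA or low heme phosphorylate the translation factor eIF2. This slows protein synthesis as a whole and favours translation of ATF4, a transcription factor that binds composite C/EBP-ATF elements and raises genes for amino acid supply and for feedback. The unfolded protein response of the endoplasmic reticulum (ER) shares the kinase PERK with it and adds XBP1 and ATF6, which raise chaperones and degradation factors. Both responses are often active in tumour cells. Because ATF4 is controlled largely by translation, acetylation at the Atf4 gene does not report ATF4 protein.

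Trib3, Chac1 and Asns were higher in every Res library than in any other library with a peak, in both marks, with log2 differences between Res and Sen of 1.03 to 1.70; in Res_shFabp7, Res_Ctrl and Sen they lay within 0.36 of one another in group log2 difference. Xbp1 and Herpud1 were also highest in Res, but the Res_shFabp7 and Res_Ctrl cells lay between Res and Sen. Atf4 was not higher in Res than in Sen, and at Atf3 the Res and Sen libraries overlapped in both marks. The genes were chosen by role, with the tag counts of these same libraries already known, asking whether Res alone was raised, so their levels and the differences that involve Res or Sen are given as a description, with no test. The comparison of Res_shFabp7 with Res_Ctrl was tested: 0 of 7 genes passed the test in H3K27ac, and 1 of 9, Herpud1, was lower in H3K9ac, a call that was lost with the regional or chromosome median removed, per called base and without Res_shFabp7 replicate 3. Over all tested regions, 0.437% were called higher and 1.02% lower in H3K27ac, and 2.61% higher and 4.71% lower in H3K9ac (edgeR adjusted p under 0.05). The Res_shFabp7 and Res_Ctrl counts were also known when the genes were chosen. Where Res alone is raised these groups are alike, so few calls were favoured beforehand and nothing is read from their number.

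Promoter sequences are shown because 5 of the 10 windows held the core of the element that ATF4 binds. RefSeq promoter windows (GRCm38.p6, 250 bases before to 50 after the annotated start) were matched for all 10 genes by symbol. The core was searched as TGATGNAA on both strands. It was found in 5 of 10 member windows and in 3.97% of all 32851 windows. The cyclic AMP response element TGACGTCA was in 0 of the 10 windows and in 1.79% of all windows, and the unfolded protein response element TGACGTGG in 0 of the 10 and in 0.676% of all. The ER stress element, CCAAT followed after 9 bases by CCACG, was in 1 of the 10 windows and in 0.119% of all. The 250 bases before the start of 5 genes follow, 5′ to 3′ on the gene's strand, with capitals at the letters of the ATF4 core in Chac1, Asns, Herpud1 and Atf3 and at the letters of the ER stress element in Hspa5.
Chac1 (chr2:119350992-119351241, plus strand): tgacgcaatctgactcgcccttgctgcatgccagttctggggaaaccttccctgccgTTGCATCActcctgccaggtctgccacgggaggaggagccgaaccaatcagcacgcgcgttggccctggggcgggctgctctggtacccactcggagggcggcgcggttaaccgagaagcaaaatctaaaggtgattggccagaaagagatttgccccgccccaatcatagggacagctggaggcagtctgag
Asns (chr6:7693210-7693459, minus strand): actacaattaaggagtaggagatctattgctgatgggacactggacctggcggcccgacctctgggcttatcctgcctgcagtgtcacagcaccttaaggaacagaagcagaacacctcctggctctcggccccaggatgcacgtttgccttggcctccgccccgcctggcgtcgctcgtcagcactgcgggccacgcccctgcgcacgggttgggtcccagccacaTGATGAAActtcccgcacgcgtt
Herpud1 (chr8:94386179-94386428, plus strand): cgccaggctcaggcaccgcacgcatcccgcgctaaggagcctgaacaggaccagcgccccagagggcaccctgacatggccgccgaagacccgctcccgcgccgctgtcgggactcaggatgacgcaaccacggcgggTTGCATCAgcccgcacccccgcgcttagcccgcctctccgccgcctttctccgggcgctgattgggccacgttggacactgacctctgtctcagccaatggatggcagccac
Atf3 (chr1:191183334-191183583, minus strand): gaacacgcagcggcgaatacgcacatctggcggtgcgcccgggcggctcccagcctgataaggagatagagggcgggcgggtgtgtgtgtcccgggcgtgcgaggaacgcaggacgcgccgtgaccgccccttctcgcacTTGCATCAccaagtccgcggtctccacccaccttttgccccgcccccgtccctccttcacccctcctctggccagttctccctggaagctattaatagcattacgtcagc
Hspa5 (chr2:34771840-34772089, plus strand): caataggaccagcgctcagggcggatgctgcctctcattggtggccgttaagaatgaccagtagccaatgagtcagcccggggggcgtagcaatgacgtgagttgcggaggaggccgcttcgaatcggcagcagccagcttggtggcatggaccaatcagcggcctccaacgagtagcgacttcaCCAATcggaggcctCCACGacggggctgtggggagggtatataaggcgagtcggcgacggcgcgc
The match began 193 bases before the start of Chac1, 110 before that of Atf3, 112 before that of Herpud1 and 23 before that of Asns, and the Hspa5 element began 65 bases before its start. The fifth match, TTACATCA in Trib3, began at the base 15 after the start and is in none of the lines above. A match of letters is a description and not evidence of binding; no data on factor binding were used here.

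A library had 11771 to 28934 peaks, which contained 2.24 to 11.5 M tags (reads placed on the genome). Res libraries were not the deepest of either mark: they had 5.08 to 7.35 M tags in H3K27ac peaks, where Res_shFabp7 reached 10.5 M, and 3.02 to 3.89 M in H3K9ac peaks, where Sen reached 11.5 M. The hairpin's target Fabp7 had a peak in 0 of 24 libraries, so its acetylation says nothing of the knockdown. Of 9 epithelial markers, 6 had a peak in all 12 libraries of each mark, among them Krt8, Krt18 and Cdh1; the lung lineage factor Nkx2-1 and the tight junction gene Cldn4 had none, and Epcam had a peak in 1 H3K27ac library and 4 H3K9ac libraries. All 6 immune markers had 0 peaks, and of 10 endothelial and fibroblast markers the highest counts were 11 of 12 libraries for Cdh5 and Col1a1 in H3K27ac. In such bulk populations, more cells with the mark and more of the mark per cell cannot be told apart.

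Each gene had 1 region over its promoter in each mark. Merging the 12 lists of a mark gave 32703 regions in H3K27ac and 20543 in H3K9ac, of which 11679 and 10149 had a peak in all 12 libraries and were tested. The members passed this filter 7 times of 10 in H3K27ac and 9 times of 10 in H3K9ac. The exceptions each lacked a peak in 1 library: Trib3 in H3K27ac in Res_Ctrl replicate 3, Chac1 in H3K27ac in Res_Ctrl replicate 2, Asns in H3K27ac in Sen replicate 1, and Chac1 in H3K9ac in Res_Ctrl replicate 1. None of the exceptions was in Res or Res_shFabp7. Sen replicate 1 and Res_Ctrl replicate 1 were the libraries with the fewest tags in peaks of those marks, with 2.24 and 2.57 M; the part of depth in the missing peaks was not tested. A library without a peak has no deposited tag count, so for these 4 cases differences come from limma with that library left out. Atf3 had 1 more H3K27ac region (chromosome 1, 191178877 to 191180882), present in 1 library of Sen.

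Levels are given in CPM, tags in the region per M tags in all tested regions after TMM scaling, which corrects for differences in composition. TRIB3 is a pseudokinase that restrains ATF4 and AKT signalling. Its H3K27ac region (chromosome 2, 152342146 to 152345266) had 23.1, 20.6 and 23.2 CPM in Res_shFabp7, 59.8, 67.3 and 94.7 CPM in Res, 24.6 and 19.8 CPM in the 2 Res_Ctrl libraries with a peak, and 19.6, 21.0 and 26.6 CPM in Sen. The 3 Res libraries stood above all others, whose groups overlapped one another. The log2 difference of Res from Sen was 1.70 ± 0.19 (SE, limma), a 3.25-fold higher level, and that of Res from Res_Ctrl was 1.71 ± 0.22. Res_Ctrl differed from Sen by -0.01 ± 0.22. In H3K9ac (chromosome 2, 152341992 to 152345058) it had 42.6, 38.8 and 38.1 CPM in Res_shFabp7, 101.3, 111 and 141 CPM in Res, 32.5, 42.1 and 31.7 CPM in Res_Ctrl, and 36.0, 41.8 and 44.3 CPM in Sen, again with only the Res libraries apart. Trib3 thus averaged 39.8 ± 2.4 CPM in Res_shFabp7, 118 ± 21 in Res, 35.4 ± 5.8 in Res_Ctrl and 40.7 ± 4.3 in Sen (SD, n = 3 each). The H3K9ac difference of Res was 1.52 ± 0.12 from Sen and 1.75 ± 0.14 from Res_Ctrl (SE, edgeR).

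CHAC1 degrades glutathione and is induced late in the response. In H3K27ac the Chac1 region (chromosome 2, 119349751 to 119352756) had 34.1, 25.004 and 24.97 CPM in Res_shFabp7, 74.7, 71.9 and 80.7 CPM in Res, 30.5 and 19.1 CPM in the 2 Res_Ctrl libraries with a peak, and 31.2, 24.5 and 22.7 CPM in Sen. Here too only the Res libraries were set apart. In H3K9ac it had 51.1, 43.0 and 37.1 CPM in Res_shFabp7, 118, 123 and 113 CPM in Res, 48.3 and 34.8 CPM in the 2 Res_Ctrl libraries with a peak, and 38.2, 46.0 and 42.3 CPM in Sen. Res was higher than Sen by 1.54 ± 0.20 in H3K27ac and 1.49 ± 0.14 in H3K9ac, and higher than Res_Ctrl by 1.64 ± 0.23 and 1.52 ± 0.15 (log2 ± SE, limma).

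ASNS makes asparagine and its gene carries a well-studied ATF4 site. The Asns region in H3K27ac (chromosome 6, 7691628 to 7693758) had 26.6, 19.1 and 16.4 CPM in Res_shFabp7, 42.9, 36.5 and 51.0 CPM in Res, 13.4, 17.1 and 19.1 CPM in Res_Ctrl, and 22.5 and 19.5 CPM in the 2 Sen libraries with a peak. The lowest Res library was again above every other library. In H3K9ac Asns had 41.4, 32.7 and 37.9 CPM in Res_shFabp7, 82.9, 97.0 and 78.4 CPM in Res, 29.7, 28.5 and 35.5 CPM in Res_Ctrl, and 39.0, 41.0 and 41.0 CPM in Sen, with Res on top and Res_Ctrl below Sen without overlap. The difference of Res from Sen in H3K27ac was 1.03 ± 0.24 (limma) and in H3K9ac 1.09 ± 0.11 (edgeR), against Res_Ctrl 1.39 ± 0.22 and 1.45 ± 0.12. Res_Ctrl was the lowest group in both marks, and in H3K9ac it was below Sen by 0.36 on the log2 scale (-0.36 ± 0.12). The 9 regions in the 5 Mb around Asns had medians of -0.40 in H3K27ac and -0.36 in H3K9ac for the same difference. Over chromosome 6 the medians were -0.33 and -0.26. Medians were removed in fixed 5 Mb windows along each chromosome, which are not centred on the gene. Where such a window held few regions, as at Asns, the chromosome's median was removed instead. After that removal Res_Ctrl minus Sen at Asns was -0.096 in H3K9ac.

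SESN2, a sestrin, restrains mTORC1 when leucine is short. Its H3K27ac region (chromosome 4, 132508839 to 132511584) had 29.7, 25.8 and 20.003 CPM in Res_shFabp7, 38.1, 36.0 and 56.9 CPM in Res, 44.6, 28.4 and 16.5 CPM in Res_Ctrl, and 38.2, 16.1 and 24.7 CPM in Sen. In H3K27ac the Res libraries overlapped those of Res_Ctrl and Sen and lay above those of Res_shFabp7. Res minus Sen was 0.79 ± 0.34 there. In H3K9ac it had 48.9, 44.5 and 50.2 CPM in Res_shFabp7, 67.0, 77.6 and 84.2 CPM in Res, 57.3, 57.4 and 51.4 CPM in Res_Ctrl, and 48.2, 50.8 and 49.0 CPM in Sen. There the Res libraries were above all others and Res_Ctrl next, while Res_shFabp7 and Sen overlapped. Res minus Sen was 0.63 ± 0.09 in H3K9ac.

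**Figure D1:**
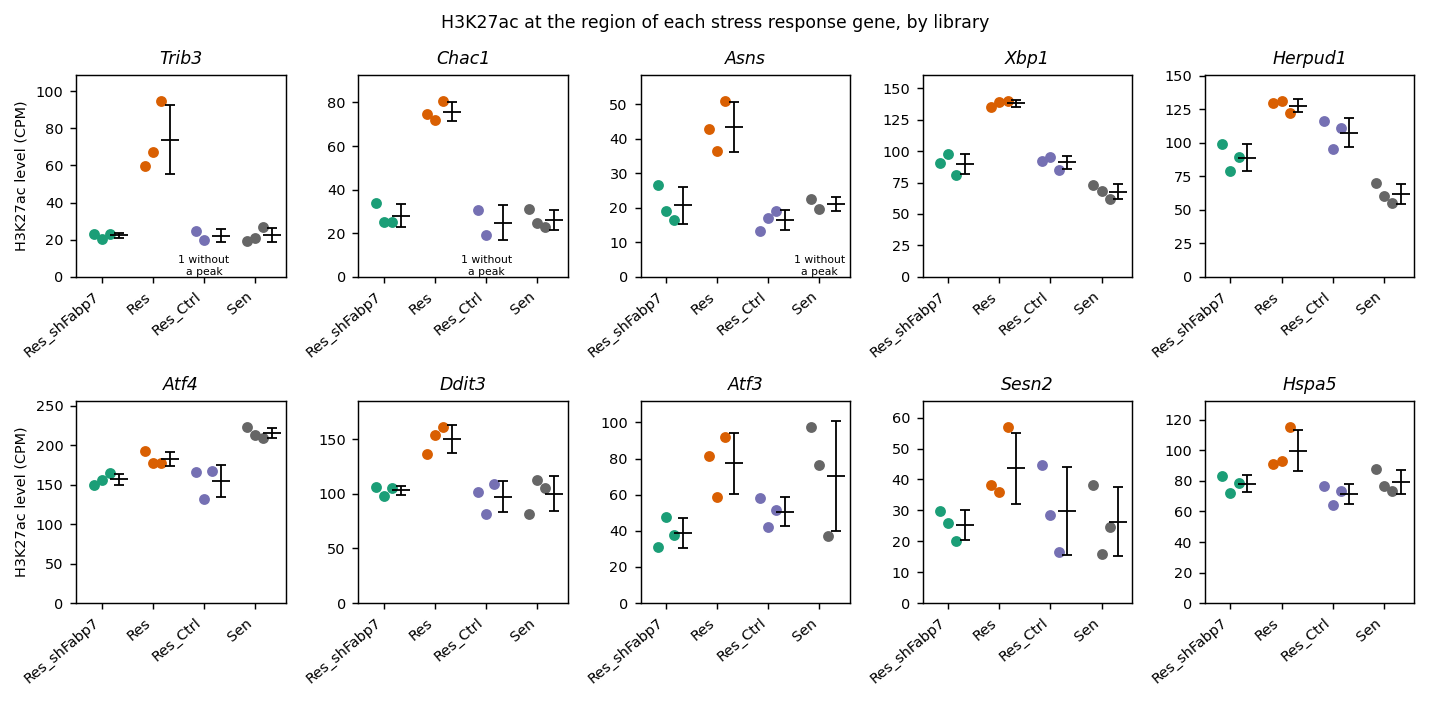
H3K27ac level in CPM (y axis) of each gene's region in each library (points) of Res_shFabp7, Res, Res_Ctrl and Sen, with the mean and SD of each group beside its points and a remark where a library had no peak. Trib3 lies between 59.8 and 94.7 CPM in Res and at or below 26.6 CPM in the other libraries with a peak, while Atf4 is highest in Sen.

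**Figure D2:**
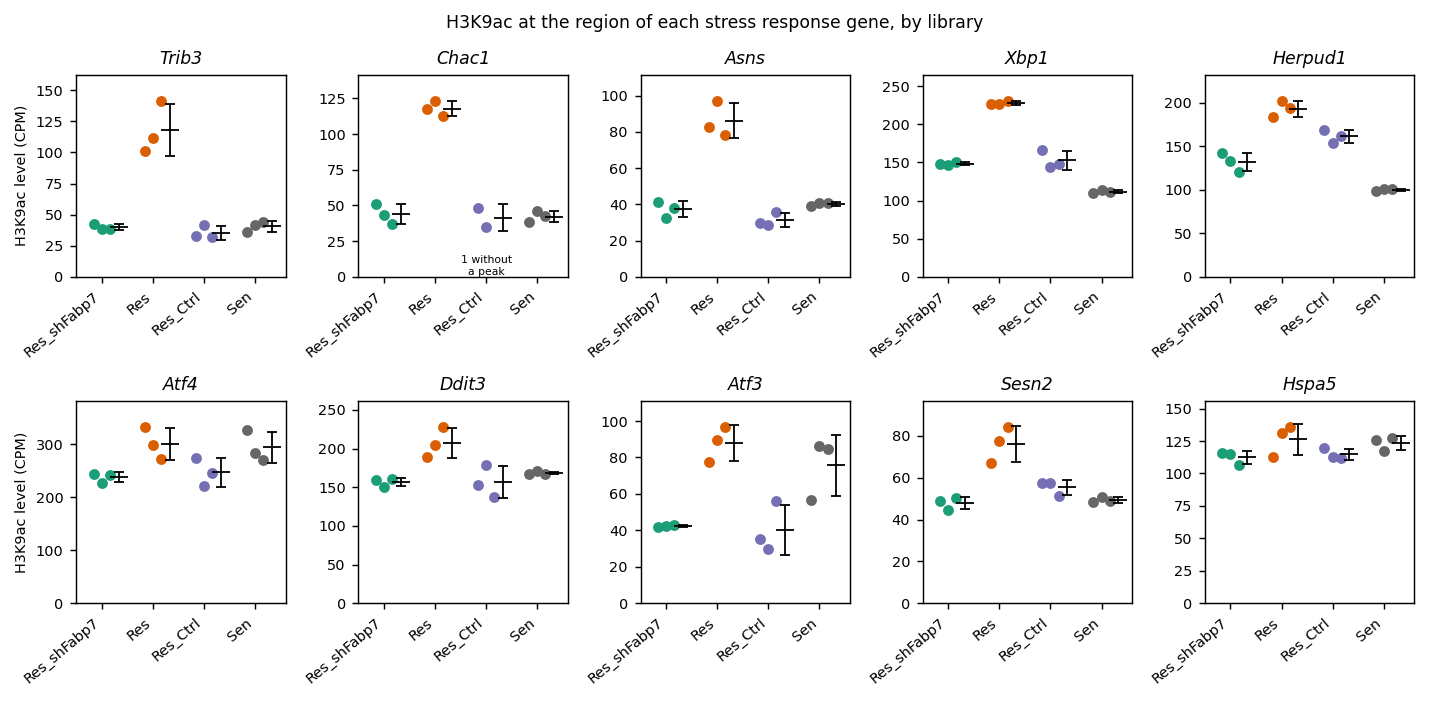
H3K9ac level in CPM (y axis) of each gene's region in each library (points) of Res_shFabp7, Res, Res_Ctrl and Sen, drawn in the same way. Chac1 lies between 113 and 123 CPM in Res and at or below 51.1 CPM elsewhere, and Herpud1 descends from Res through Res_Ctrl and Res_shFabp7 to Sen.

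Among the transcription factor genes, Atf4 and Atf3 did not share this pattern, while Ddit3 and Xbp1 were highest in Res. Atf4 (H3K27ac region on chromosome 15, 80253149 to 80258952) had 149.8, 156 and 164 CPM in Res_shFabp7, 192, 178 and 177 CPM in Res, 166, 132 and 167 CPM in Res_Ctrl, and 223, 213 and 209 CPM in Sen. Sen was the highest group with no overlap, and Res minus Sen was -0.24 ± 0.10. In H3K9ac, Atf4 averaged 238 ± 9.2 CPM in Res_shFabp7, 301 ± 30 in Res, 247 ± 27 in Res_Ctrl and 294 ± 30 in Sen (SD, n = 3 each), where Res and Sen overlapped and differed by 0.04 ± 0.08. The 5 Mb around Atf4 had a median Res minus Sen difference of -0.20 over 97 H3K27ac regions and -0.11 over 75 H3K9ac regions, and a median Res_Ctrl minus Sen difference of -0.46 and -0.30. In H3K27ac the direction depended on the measure: tags per called base gave 0.038 for Res minus Sen. The H3K27ac region of Atf4 also overlapped the end of Mief1, whose transcript starts 21104 bases upstream.

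ATF3, a repressor induced by many stresses, had a gene region (chromosome 1, 191181619 to 191187400) with 31.2, 47.9 and 37.7 CPM of H3K27ac in Res_shFabp7, 81.6, 58.7 and 91.8 CPM in Res, 58.0, 42.4 and 51.5 CPM in Res_Ctrl, and 97.3, 76.5 and 37.1 CPM in Sen. The Sen libraries ranged so widely that they overlapped all other groups. In H3K9ac it had 41.9, 42.3 and 42.7 CPM in Res_shFabp7, 77.5, 89.6 and 96.6 CPM in Res, 35.0, 29.9 and 56.0 CPM in Res_Ctrl, and 56.6, 86.0 and 84.5 CPM in Sen. Res and Sen overlapped in H3K9ac, with a difference of 0.18 ± 0.16, and Res_Ctrl was lower than Sen (-0.90 ± 0.18). The 5 Mb around Atf3 were also lower than in Sen, with H3K27ac medians of -0.32 in Res_shFabp7 and -0.34 in Res_Ctrl over 26 regions and H3K9ac medians of -0.23 and -0.21 over 21. With medians removed in the fixed windows, Res_Ctrl minus Sen at Atf3 was -0.11 in H3K27ac, against -0.44 before, and -0.73 in H3K9ac. Per called base it was 0.076 in H3K27ac and 0.24 in H3K9ac, so the direction depended on the measure.

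DDIT3, known as CHOP, promotes death under prolonged ER stress. The Ddit3 region spanned 6292 bases in H3K27ac (chromosome 10, 127286669 to 127292960) and also held the promoters of Mbd6, whose transcripts start 1775 and 1912 bases upstream on the opposite strand, so its tags belong to both genes. Relative to the Ddit3 start, H3K9ac summits lay between -2401 and -2039 bases in all 12 libraries, on the Mbd6 side. H3K27ac summits lay between -672 and -579 bases in Res and between -2330 and -2042 in Sen. Those of Res_shFabp7 ran from -2039 to -613 and those of Res_Ctrl from -2285 to -515. The region had 106, 97.9 and 105 CPM of H3K27ac in Res_shFabp7, 136, 154 and 161 CPM in Res, 101, 81.3 and 109 CPM in Res_Ctrl, and 81.9, 112 and 106 CPM in Sen. In H3K9ac it had 159, 151 and 161 CPM in Res_shFabp7, 189.5, 204 and 228 CPM in Res, 152, 179 and 138 CPM in Res_Ctrl, and 167, 171 and 167 CPM in Sen. Res was highest without overlap in both marks, by 0.58 ± 0.13 against Sen in H3K27ac and by 0.30 ± 0.08 in H3K9ac.

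XBP1 is activated by splicing through IRE1 and is itself induced by ER stress. The Xbp1 region (chromosome 11, 5519401 to 5523427) had 90.4, 97.5 and 81.2 CPM of H3K27ac in Res_shFabp7, 135, 139 and 139.9 CPM in Res, 92.2, 95.7 and 85.1 CPM in Res_Ctrl, and 73.1, 68.7 and 61.8 CPM in Sen. In H3K9ac it had 148, 146 and 150.4 CPM in Res_shFabp7, 227, 226 and 231 CPM in Res, 166, 144 and 148 CPM in Res_Ctrl, and 110.1, 114 and 111 CPM in Sen. In both marks the groups formed 3 steps, Res on top, Res_shFabp7 and Res_Ctrl overlapping below it and Sen lowest. Res minus Sen was 1.03 ± 0.10 in H3K27ac and 1.03 ± 0.05 in H3K9ac, and Res_Ctrl minus Sen 0.43 ± 0.10 and 0.44 ± 0.06. Its surroundings moved the same way between Res and Sen: the 5 Mb around Xbp1 had medians of 0.45 over 52 H3K27ac regions and 0.35 over 49 H3K9ac regions. With medians removed from every library in the fixed windows, Res minus Sen at Xbp1 was 0.47 in H3K27ac and 0.70 in H3K9ac. Res minus Res_Ctrl at Xbp1 was 0.60 ± 0.10 and 0.59 ± 0.06, where the 5 Mb around it had medians of 0.41 and 0.30. With medians removed in the fixed windows, which are not centred on Xbp1, this difference was 0.17 and 0.25.

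HERPUD1 helps to degrade misfolded ER proteins. Its H3K27ac region (chromosome 8, 94384425 to 94389297) had 99.2, 78.8 and 89.3 CPM in Res_shFabp7, 129.7, 131 and 123 CPM in Res, 117, 95.4 and 111 CPM in Res_Ctrl, and 69.8, 60.2 and 55.0 CPM in Sen. In H3K9ac it had 142, 133 and 121 CPM in Res_shFabp7, 183, 202 and 194 CPM in Res, 168, 154 and 162 CPM in Res_Ctrl, and 99.0, 101 and 101 CPM in Sen. All 4 groups were apart in H3K9ac. Res minus Sen was 1.06 ± 0.12 in H3K27ac and 0.95 ± 0.06 in H3K9ac, and Res_Ctrl minus Sen was 0.82 ± 0.12 and 0.69 ± 0.06, so most of the distance was also seen without the Res libraries. The 5 Mb around Herpud1 shifted with Res_Ctrl minus Sen too, with medians of 0.54 over 35 H3K27ac regions and 0.48 over 32 H3K9ac regions. After removal of medians in the fixed windows, which are not centred on Herpud1, Res_Ctrl minus Sen there was 0.18 and 0.11. Res minus Sen was then 0.74 and 0.60. Res minus Res_Ctrl, 0.25 ± 0.12 and 0.26 ± 0.06 as measured, was 0.56 and 0.49 after that removal.

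HSPA5, the chaperone BiP, binds and silences the ER stress sensors. Its H3K27ac region (chromosome 2, 34768861 to 34773756) averaged 78.2 ± 5.5 CPM in Res_shFabp7, 99.8 ± 13 in Res, 71.5 ± 6.5 in Res_Ctrl and 79.3 ± 7.7 in Sen (SD, n = 3 each), and every Res library was above the others. In H3K9ac the Res libraries overlapped every other group: 116, 115 and 106 CPM in Res_shFabp7, 113, 131 and 136 CPM in Res, 119.9, 113 and 112 CPM in Res_Ctrl, and 126, 117 and 127 CPM in Sen. Res minus Sen was 0.34 ± 0.12 in H3K27ac and 0.04 ± 0.07 in H3K9ac. The H3K9ac region of Hspa5 also overlapped the end of Rabepk, whose transcripts start 27701 and 27822 bases downstream of the Hspa5 start.

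Trib3, Chac1 and Hspa5 share chromosome 2, and the other 7 genes lie on 7 different chromosomes. The 5 Mb around Trib3, Chac1 and Asns did not rise with them between Res and Sen: the medians of Res minus Sen were -0.18 over 32 regions, -0.25 over 46 and -0.28 over 9 in H3K27ac. With medians removed in the fixed windows, Res minus Sen in H3K9ac was 1.69 at Trib3. At Asns, where the chromosome's median was removed instead, it was 1.39. Over the tested members the median of Res minus Sen was 0.58 in H3K27ac (n = 7) and 0.63 in H3K9ac (n = 9), beside -0.01 over all tested regions of either mark. The medians of Res minus Res_Ctrl were 0.54 and 0.48, beside 0.02 and -0.01 over all regions; without Res replicate 3 the H3K27ac value was 0.35. The medians of Res_Ctrl minus Sen were -0.05 and -0.12, beside -0.03 and 0.00. These differences share the Res, Res_Ctrl or Sen libraries and are not independent of one another.

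All 3 Res libraries were above the other 9 at 4 of 7 tested members in H3K27ac and 6 of 9 in H3K9ac. The same held for 15.0% and 17.7% of all tested regions. The reverse, all 3 Res libraries below the other 9, held for 0 members in either mark and for 9.94% and 14.7% of all regions. Since the members were chosen with the Res values known, nothing is read from these counts.

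**Figure D3:**
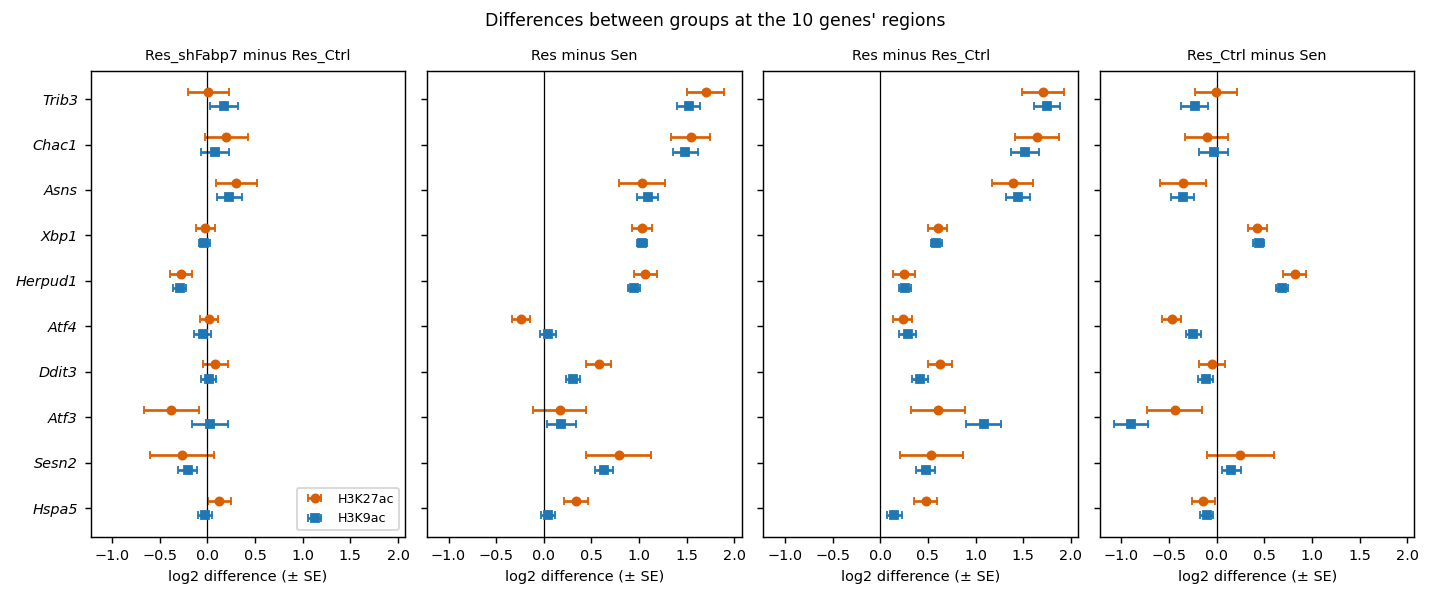
Log2 difference in acetylation with its SE (x axis) at each gene's region (y axis) for 4 pairs of groups, circles for H3K27ac and squares for H3K9ac. Trib3, Chac1 and Asns lie above 1 in Res minus Sen and in Res minus Res_Ctrl, whereas Herpud1 lies at 0.25 and 0.26 in Res minus Res_Ctrl and at 0.82 and 0.69 in Res_Ctrl minus Sen.

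The called intervals of Trib3 and Chac1 in H3K27ac were longest in Res, which was not so at every member: at Herpud1 they averaged 3794 bases in Res_shFabp7 and 3744 in Res, and at Atf4 5156 and 4220. At Trib3 the called length averaged 1758 ± 257 bases in Res_shFabp7, 2699 ± 367 in Res, 1380 ± 295 in Res_Ctrl (n = 2) and 1339 ± 389 in Sen (SD, n = 3 where not given). At Chac1 it averaged 1973 ± 180 bases in Res_shFabp7, 2725 ± 254 in Res, 1643 ± 402 in Res_Ctrl (n = 2) and 1478 ± 43 in Sen. Because the deposited count covers only the called interval, per called base the Res minus Sen difference in H3K9ac was 0.82 at Trib3 and 0.67 at Asns, smaller than with whole counts and of the same sign. Relative to the annotated start, H3K27ac summits in Res lay between 191 and 218 bases at Trib3 and between -363 and -341 bases at Chac1. The H3K9ac summits of Chac1 lay between 281 and 297 bases in Res. In Res_shFabp7 they lay between -426 and -400 bases, in Sen between -416 and -369, and in Res_Ctrl (n = 2) at -411 and 204. The authors' fold of the strongest peak, a ratio of tags to the caller's background within a list, averaged 9.67 in Res_shFabp7, 14.4 in Res, 6.88 in Res_Ctrl and 6.42 in Sen at Trib3 in H3K27ac. At Trib3 in H3K9ac it averaged 13.7 in Res_shFabp7, 19.35 in Res, 7.57 in Res_Ctrl and 21.7 in Sen. The order of Res and Sen in this fold thus differed between the marks.

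**Figure D4:**
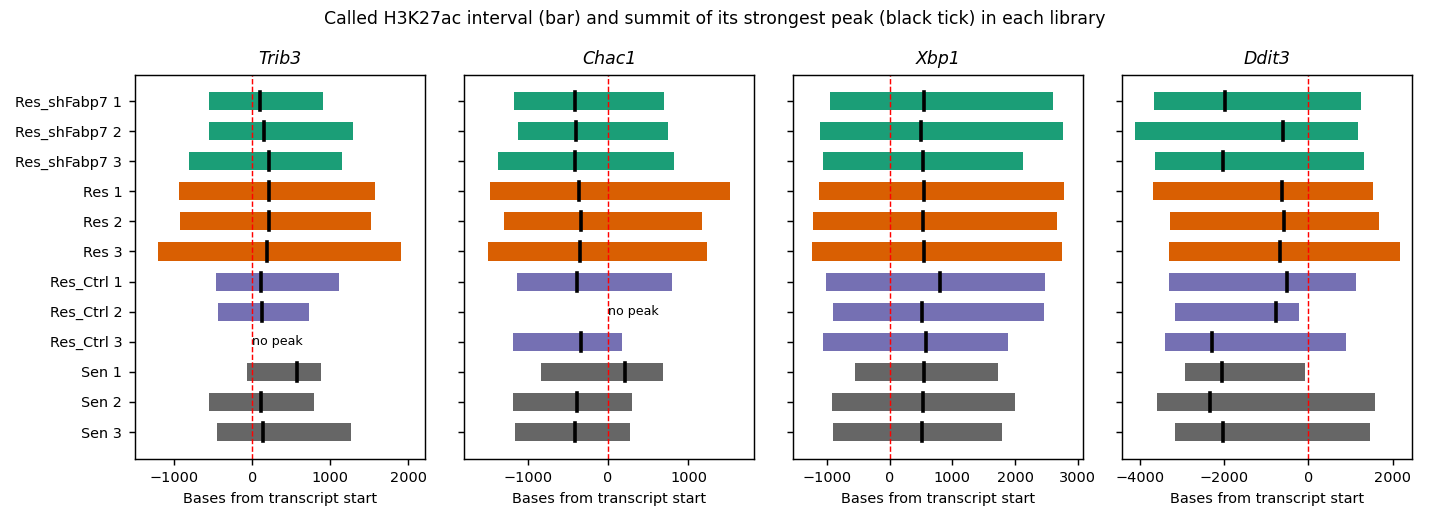
Called H3K27ac interval (bar) and summit of its strongest peak (black tick) of each library, in bases from the annotated start (dashed line), for Trib3, Chac1, Xbp1 and Ddit3. At Trib3 the Res intervals average 2699 bases against 1339 in Sen, and at Ddit3 the interval reaches far upstream, over the start of Mbd6.

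The difference between the Res_shFabp7 and Res_Ctrl libraries was tested with edgeR's quasi-likelihood test and Benjamini-Hochberg adjustment over all regions of a mark. Because the genes were chosen while asking whether Res alone was raised, few calls between these groups were favoured beforehand. In H3K27ac, 0 of 7 tested members were called, higher or lower, and over all regions 51 were higher and 119 lower, with 1763 at an unadjusted p under 0.05; DESeq2 also called 0 members. Same-numbered H3K27ac libraries of Res_shFabp7 and Res_Ctrl deviated together, which alone does not show that they were paired. With the number as a block, the calls over all regions rose to 198 higher and 383 lower, with 0 members among them. In H3K9ac, 1 of 9 tested members was called, beside 265 higher and 478 lower over all regions. It was Herpud1, lower in Res_shFabp7 than in Res_Ctrl (log2 difference -0.29 ± 0.06, edgeR adjusted p = 0.010), with all 3 Res_shFabp7 libraries below all 3 Res_Ctrl libraries.

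The Herpud1 difference was of the same size in H3K27ac (-0.28 ± 0.12, edgeR adjusted p = 0.28), where the libraries overlapped. Its neighbourhood was lower as well, with 5 Mb medians of -0.19 in H3K9ac and -0.23 in H3K27ac. The Herpud1 call was lost when that median was removed (-0.10), when the chromosome's median was removed (-0.13), per called base (-0.01) and without Res_shFabp7 replicate 3 (-0.23). At Trib3, Chac1 and Asns, which had the largest Res minus Res_Ctrl differences in both marks, the Res_shFabp7 minus Res_Ctrl difference was 0.01 ± 0.22, 0.20 ± 0.23 and 0.30 ± 0.22 in that order in H3K27ac (limma) and 0.17 ± 0.15, 0.08 ± 0.15 and 0.23 ± 0.13 in H3K9ac. The 95% intervals in H3K9ac ran from -0.12 to 0.46 at Trib3, from -0.22 to 0.38 at Chac1 and from -0.02 to 0.48 at Asns. The other members that did not pass the test ran from -0.38 ± 0.29 at Atf3 to 0.12 ± 0.12 at Hspa5 in H3K27ac, and from -0.20 ± 0.10 at Sesn2 to 0.03 ± 0.19 at Atf3 in H3K9ac. These intervals rest on a normal approximation with few libraries per group. They are not set against the Res minus Res_Ctrl differences, for which these genes are named and which share the Res_Ctrl libraries. Against Res, by contrast, Res_shFabp7 was lower at Trib3 (-1.70 ± 0.19 in H3K27ac, -1.58 ± 0.12 in H3K9ac), Chac1 (-1.45 ± 0.20 and -1.44 ± 0.14) and Asns (-1.08 ± 0.22 and -1.22 ± 0.11), as was Res_Ctrl.

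A wider list of 93 genes of the same responses, in 8 groups by role, was set beside the members. In H3K27ac 73 had a tested region and in H3K9ac 82. All 3 Res libraries were above the other 9 at 29 of 73 genes in H3K27ac and 41 of 82 in H3K9ac, and below them at 2 and 4, beside 15.0% and 17.7% of all regions above and 9.94% and 14.7% below. This list too was drawn up with earlier results of the data known, so its counts are a description. The median of Res minus Sen over the wider list was 0.40 in H3K27ac and 0.36 in H3K9ac, beside -0.01 over all tested regions of either mark. Enzymes and partners of tRNA charging had the highest share of the 8 groups: the Res libraries stood on top at 11 of 12 tested genes in H3K27ac, the exception being the tRNA exporter Xpot, and at 12 of 13 in H3K9ac, the exception being the alanyl-tRNA synthetase Aars. Their Res minus Sen differences ran from 0.24 to 0.91 with a median of 0.50 in H3K27ac, and from 0.21 to 0.90 with a median of 0.54 in H3K9ac.

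Genes of amino acid synthesis had Res on top at 3 of 7 in H3K27ac and 7 of 9 in H3K9ac, and amino acid transporters at 3 of 8 and 5 of 7. Among these Gpt2, a mitochondrial alanine aminotransferase, averaged 51.2 ± 7.6 CPM of H3K27ac in Res_shFabp7, 105 ± 8.1 in Res, 48.4 ± 12 in Res_Ctrl and 32.0 ± 19 in Sen (SD, n = 3 each). Slc7a11, the cystine importer whose activity protects cells from ferroptosis, averaged 44.2 ± 7.0 CPM in Res_shFabp7, 111 ± 27 in Res, 45.9 ± 8.2 in Res_Ctrl and 46.7 ± 11 in Sen. Slc7a5, which carries leucine and other large neutral amino acids, had higher levels in all resistant groups: 210.4 ± 27 CPM in Res_shFabp7, 258 ± 8.5 in Res, 257 ± 1.9 in Res_Ctrl and 111 ± 23 in Sen, in a region shared with BC048644. Slc7a5 and Gpt2 lie on chromosome 8, whose H3K27ac regions had medians of 0.34 for Res minus Sen and 0.59 for Res_Ctrl minus Sen (n = 701), beside 1.20 ± 0.13 for each difference at Slc7a5 and 1.66 ± 0.29 and 0.55 ± 0.30 at Gpt2. The transporter Slc7a1, named after its values were seen, had every Res library below the others in H3K27ac (Res minus Sen -0.55 ± 0.16). In H3K9ac it had every Res library above the others (0.88 ± 0.07).

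ER chaperones and folding enzymes had Res on top at 0 of 12 in H3K27ac and 1 of 14 in H3K9ac, where it was Canx, calnexin; with 15.0% and 17.7% over all regions and so few genes, these counts do not set the group apart from the background. The median of Res minus Sen in this group was -0.07 in both marks. Pdia4, a disulfide isomerase, was the lowest of them with -0.93 ± 0.14 in H3K27ac and -0.64 ± 0.07 in H3K9ac; it, Canx, Xpot and Aars were named after their values were seen. Genes of ER export and degradation had Res on top at 3 of 8 and 3 of 10, among them Sec61b, a subunit of the translocation channel, with a Res minus Sen difference of 1.01 ± 0.06 in H3K9ac; its region is shared with Alg2. Transcription factors had Res on top at 4 of 9 and 6 of 9. The largest of these was Nfe2l1, which raises proteasome genes, with Res minus Sen at 1.497 ± 0.18 in H3K27ac and 1.08 ± 0.11 in H3K9ac; the medians over its chromosome 11 were 0.41 and 0.35. Growth and secreted factors had it at 3 of 8 and 4 of 8, with the translation inhibitor Eif4ebp1 at 1.24 ± 0.06 in H3K9ac, where the median over its chromosome 8 was 0.31. Stress sensors and phosphatase subunits had it at 2 of 9 and 3 of 12.

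**Figure D5:**
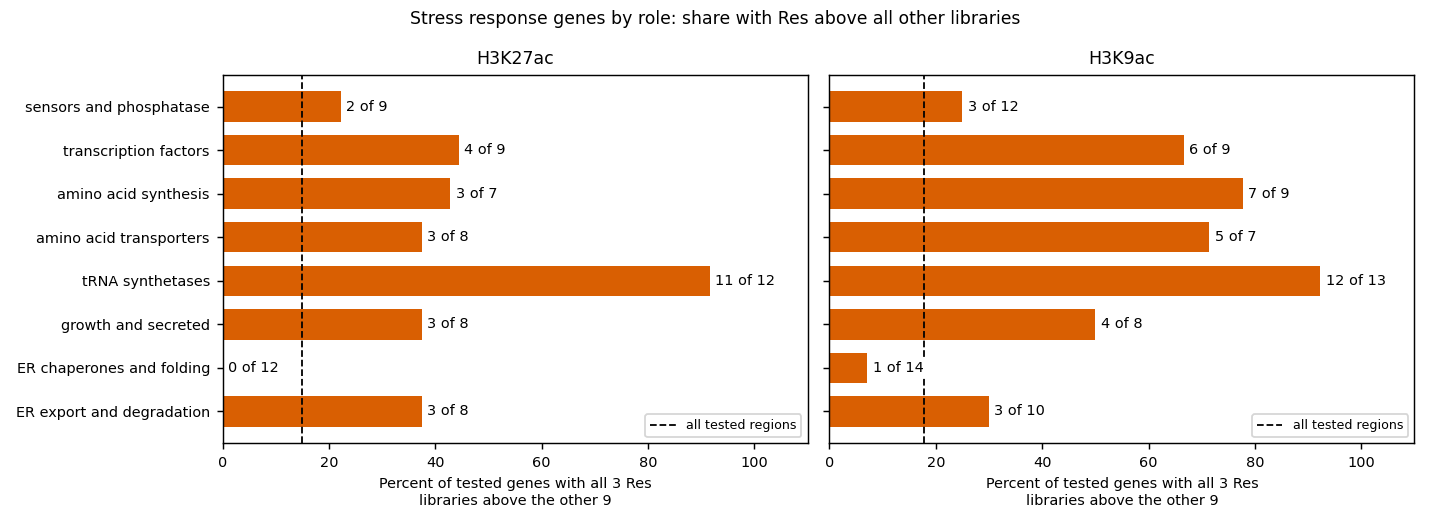
Percent of tested genes of each role (x axis) at which all 3 Res libraries were above the other 9, with counts beside the bars and the share of all tested regions as a dashed line, 15.0% in H3K27ac and 17.7% in H3K9ac. Genes of tRNA charging reach 11 of 12 and 12 of 13, and ER chaperones 0 of 12 and 1 of 14.

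Between Res_shFabp7 and Res_Ctrl the wider list had 0 genes higher and 1 lower of 73 in H3K27ac, and 2 higher and 3 lower of 82 in H3K9ac. Over all tested regions the shares were 0.437% and 1.02% in H3K27ac and 2.61% and 4.71% in H3K9ac, so the list's counts are near the background and say nothing particular of the list; the called genes follow as single values. Creb3, a membrane-bound factor released under Golgi and ER stress whose region is shared with Tln1, was lower in both marks: -0.46 ± 0.08 in H3K27ac (edgeR adjusted p = 0.018) and -0.40 ± 0.05 in H3K9ac (adjusted p = 0.00035). It lies on chromosome 4, whose medians for this difference were -0.14 in H3K27ac and -0.13 in H3K9ac. The part of that shift in the Creb3 calls was not tested. The other H3K9ac calls were Sqstm1, an autophagy receptor, which was higher (0.49 ± 0.08, edgeR adjusted p = 0.0018), Mbtps2, the protease that releases ATF6, higher (0.38 ± 0.10, adjusted p = 0.023), Vldlr, a lipoprotein receptor whose region is shared with Gm35438, lower (-0.27 ± 0.08, adjusted p = 0.047), and Vegfa, an angiogenic factor, lower (-0.19 ± 0.05, adjusted p = 0.026). Sqstm1 averaged 120.0 ± 3.8 CPM in Res_shFabp7 and 85.6 ± 4.9 CPM in Res_Ctrl (SD, n = 3 each). The other 72 genes in H3K27ac and 77 in H3K9ac did not pass the test.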

How the data were processed

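Acetylation was measured by ChIP-seq in 24 immunoprecipitated libraries; 4 input libraries were not analysed here. Per the submitters' processing notes, tools and build were Bowtie 1.1.2, MACS 1.4.2 and mm10; roles, duplicates and control use are not given in the sources used here. The authors deposited 1 peak list per library. For every peak the authors gave a raw tag count, a score on a log10 p-value scale (lowest 50.0) and a fold over the caller's background. The labels give 53 to 158 M reads per sample without assigning them to libraries, so tags in peaks stand in for depth.

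The 12 lists of a mark were merged wherever peaks shared 1 base or more; regions found in all 12 were fitted on their tag counts with edgeR 4.0.16 (R 4.3.3; quasi-likelihood, TMM, the 4 groups in 1 fit, adjusted p under 0.05). No peak interval with its tags recurred between 2 libraries of a group. Each gene was given the region with most scaled tags within 1 kb of its RefSeq body. Members lacking a peak in 1 library were fitted with limma 3.58.1 on log2 CPM without that library, chosen after seeing the data. The edgeR fit recovered changes placed in simulated counts of Res_shFabp7. All simulated regions had the same spread and the changed ones the same size of change. Smaller differences, regions of wider spread and the limma fit were thus not covered. Same-numbered libraries of Res_shFabp7 and Res_Ctrl deviated together in H3K27ac (correlations 0.42, 0.19 and 0.23), not in H3K9ac (0.02, 0.04 and -0.04). The members and gene lists were chosen with earlier results of these data known. Named genes were the 10 members, and of the wider list, per mark, up to 6 called between Res_shFabp7 and Res_Ctrl and the 4 with the largest Res minus Sen difference, with the 5 other genes most like the members. Alternatives were DESeq2 1.42.0, no TMM, loess scaling, stricter peaks or overlap, fewer lists, called length, regional medians, other gene windows, each library left out and a replicate block. Regional medians were removed in fixed 5 Mb windows along each chromosome, or over the chromosome where a window held few regions. The medians printed for the 5 Mb around a gene are centred on it and can differ from those removed. Figures were drawn with matplotlib 3.10.9. Coordinates are those of the lists and of RefSeq.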

Additional observations from a re-analysis of the deposited data

How the results depend on the processing

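For the 10 summary values (counts of members called and medians over members), 22 to 26 of 27 alternatives gave the same result. The median of Res minus Sen in H3K27ac was 0.76 over the 9 members testable with the 6 lists of these groups, 0.90 over all 10 with limma and 0.36 per called base; in H3K9ac it was 0.78 with 6 lists, 0.78 with limma, 0.52 per called base and 0.29 with peaks of a score of at least 100, over 7 members. Per called base, the medians of Res minus Res_Ctrl and Res_shFabp7 minus Res in H3K27ac were 0.23 and -0.30, and Res_shFabp7 minus Res in H3K9ac was -0.39; limma gave -0.70 for the H3K27ac value. Res minus Res_Ctrl in H3K9ac was 0.59 with chromosome medians removed. Res_Ctrl minus Sen, near 0, was 0.12 in H3K27ac and turned to 0.035 in H3K9ac per called base. Leaving out 1 library gave Res minus Sen 0.50 to 0.73 and 0.55 to 0.78, Res minus Res_Ctrl 0.35 to 0.58 and 0.40 to 0.57, Res_shFabp7 minus Res -0.59 to -0.47 and -0.65 to -0.60, and Res_Ctrl minus Sen -0.15 to 0.03 and -0.17 to -0.08.

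Members called between Res_shFabp7 and Res_Ctrl numbered 1 in H3K27ac per called base (Atf3, -0.38). In H3K9ac they numbered 0 with chromosome medians or 5 Mb window medians removed, and 0 to 1 with a library left out; per called base the 1 call was Atf4 (0.23). Directions that turned were those of Atf4 in H3K27ac with chromosome medians removed (-0.063 for Res minus Res_Ctrl, 0.062 for Res_shFabp7 minus Res, 0.042 for Res_Ctrl minus Sen) and per called base (0.038 for Res minus Sen), of Atf4 in H3K9ac for Res_Ctrl minus Sen (0.11 and 0.040 with chromosome and window medians removed), of Atf3 for Res_Ctrl minus Sen per called base (0.076 and 0.24), and of Hspa5 in H3K9ac per called base (-0.10 for Res minus Res_Ctrl, 0.094 for Res_shFabp7 minus Res, 0.035 for Res_Ctrl minus Sen). The cause was not tested. The replicate block kept 0 members called in H3K27ac and 1 in H3K9ac, where calls over all regions were 702 with the block and 743 without; it changed no other call of a member. Over all H3K27ac regions, DESeq2 called 431 and the block 581, beside 170 in the edgeR fit without the block.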

Other observations

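The genes outside the lists whose levels over the 12 libraries were most like the mean standardised level of the tested members were, in H3K27ac, Mgat4b (Pearson r = 0.97) and a single region shared by Wdr46, Vps52, Rps18 and B3galt4 (r = 0.96). In H3K9ac they were Ankrd12 (r = 0.98), Rars (0.98), Pck2 (0.97), Socs5 (0.97) and Slc35f5 (0.97). The libraries, their depth and the Res group are shared by both sides of these correlations, which were selected as the highest of all genes and have no p. Rars, the arginyl-tRNA synthetase gene, had Res minus Sen at 0.92 ± 0.09 and Res minus Res_Ctrl at 1.16 ± 0.10 in H3K9ac. Pck2, mitochondrial phosphoenolpyruvate carboxykinase, had 0.87 ± 0.09 and 1.22 ± 0.10. At Mgat4b in H3K27ac these differences were 0.64 ± 0.12 and 0.56 ± 0.12.

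The ER stress element was found in 9 of 95 promoter windows of the wider list (9.47%), and the ATF4 core in 13 (13.7%), beside 0.119% and 3.97% of all windows.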
